A study of Homo sapiens with 16 samples.

Results

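The 75 genes described here were clearly expressed in HCT116 cells without hexamethylene bisacetamide (HMBA) and held at most 1/8 of that RNA level in cells given HMBA. They were chosen from the deposited table of 60676 genes by a rule on the data themselves. A gene had to reach 5 CPM (the count over the library total, times 1e6) in each of 4 libraries without HMBA, which 10490 genes did. Its CPM summed over 4 libraries with HMBA had to be at most 1/8 of the sum over those 4, which 82 genes met (0.782% of the expressed genes). The rule then dropped 7 of the 82 by name (WNT16, HOXA11, HOXA3, BMP4, MYC, SEMA4C and PDE4B). Because HMBA chose the genes, their loss with HMBA is a description. Results are read only from tests of shRNA, EPZ-5676 and their products with HMBA.

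HCT116 is an established human colorectal carcinoma cell line. Poly(A) RNA was sequenced from cells with an shRNA against NELFE (shNELFE) or a control shRNA (shCTL), and each was given EPZ-5676 with HMBA, HMBA, EPZ-5676 or DMSO, which made 8 groups with 2 libraries each, numbered 1 and 2. The labels name 1 cell line, 1 shRNA label per arm and no dose, time or separate culture. The main tests below use 1 library per group, so no spread between replicates of a group enters them. Their p-values rest on what a fit of added shRNA, EPZ-5676 and HMBA terms leaves over. That remainder includes any joint effects of these factors, and part or all of it may be technical.

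Negative elongation factor, of which NELFE is the subunit that contacts RNA, keeps RNA polymerase II paused shortly after initiation. EPZ-5676 inhibits DOT1L, the methyltransferase that marks histone H3 within transcribed genes. HMBA is a polar compound, first known as an inducer of differentiation, that releases P-TEFb, the kinase of productive elongation, from sequestration and induces HEXIM1, the protein that keeps P-TEFb inactive.

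The 8 libraries numbered 2 carried the rule and the main tests below. They had 13428893 to 16354111 counts each, so that 3 counts stood for 0.183 to 0.223 CPM. In these, NELFE was at 14.2 to 24.1 CPM in shNELFE cells and 64.8 to 90.1 CPM in shCTL cells, and HEXIM1 was at 351 to 365 CPM with HMBA and 74.4 to 90.3 CPM without it. Of the libraries numbered 1, 7 of 8 stood apart: their correlation with libraries numbered 2 (Pearson's r of log2 CPM across genes) was 0.813 to 0.876, against 0.954 to 0.997 among the libraries numbered 2. Levels across those 7 did not follow the labels: HEXIM1 was at 47.0 to 78.3 CPM in the 3 labelled HMBA and 40.8 to 66.9 CPM in the 4 without it, and NELFE at 82.1 to 145 CPM in the 3 labelled shNELFE and 90.7 to 258 CPM in the 4 labelled shCTL. In them EREG was at 0 to 0.150 CPM, CYP24A1 at 0 to 0.290 CPM and HS3ST1 at 0 to 0.150 CPM, and the epithelial gene CDH1 had 2 counts in each of 2 libraries and 576 to 1503 CPM in the other 5, against 89.8 to 201 CPM in the libraries numbered 2. Whether they hold the labelled HCT116 cells or treatments was not tested, and results that include them are not read as a repeat of the experiment. Their summed level of the 75 genes was 1509 to 1859 CPM whatever the label, with 11 to 22 of the genes under 1 CPM in each. The remaining library, shNELFE with EPZ-5676 and HMBA, correlated at 0.948 to 0.991 and is used separately. Of 15 colorectal epithelial markers 8 reached 1 CPM, with a summed level of 4535 to 5018 CPM with HMBA and 4974 to 6725 CPM without. Summed levels with and without HMBA were 680 to 827 and 278 to 317 CPM for 7 neural markers (GFAP at 0), 29.8 to 49.3 and 10.9 to 34.0 CPM for 7 fibroblast markers (LUM at 0), 14.5 to 29 and 10.8 to 22.9 CPM for 7 immune markers (CD3E and MS4A1 at 0) and 10.3 to 14.4 and 2.63 to 4.02 CPM for 6 endothelial markers (CLDN5 at 0); their part in the results was not tested.

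Promoters are shown for 3 of the genes, because they carry different letters among those searched for and belong to secreted or cell-surface signalling proteins that the results return to. Each is the RefSeq window on GRCh38.p14 from 250 bases before the annotated start to 50 bases after it, read 5′ to 3′ on the gene's strand. Capitals mark matches, on either strand, to short motifs of known factors whose letters are spelled out with their shares. FJX1 lies at chr11:35618210-35618509 on the plus strand, F3 at chr1:94541710-94542009 on the minus strand and EREG at chr4:74364895-74365194 on the plus strand.
FJX1: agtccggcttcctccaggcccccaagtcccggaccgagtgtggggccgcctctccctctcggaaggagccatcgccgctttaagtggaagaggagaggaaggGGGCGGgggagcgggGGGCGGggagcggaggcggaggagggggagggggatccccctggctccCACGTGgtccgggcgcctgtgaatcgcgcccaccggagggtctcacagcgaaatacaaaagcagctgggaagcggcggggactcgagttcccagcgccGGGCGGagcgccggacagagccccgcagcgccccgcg
F3: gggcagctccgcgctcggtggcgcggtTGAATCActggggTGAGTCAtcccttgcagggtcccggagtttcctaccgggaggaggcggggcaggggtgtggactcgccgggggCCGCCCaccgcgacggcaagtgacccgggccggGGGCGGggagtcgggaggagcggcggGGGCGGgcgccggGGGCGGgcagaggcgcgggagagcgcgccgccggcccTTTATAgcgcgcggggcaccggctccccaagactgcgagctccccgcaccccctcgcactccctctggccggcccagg
EREG: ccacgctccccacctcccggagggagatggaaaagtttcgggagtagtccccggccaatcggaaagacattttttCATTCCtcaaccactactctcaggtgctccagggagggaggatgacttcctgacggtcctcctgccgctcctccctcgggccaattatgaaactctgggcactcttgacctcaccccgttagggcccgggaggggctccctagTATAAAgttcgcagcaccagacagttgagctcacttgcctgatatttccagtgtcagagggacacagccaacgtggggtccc
The FJX1 window held an E-box and 3 GC boxes, the F3 window 2 AP-1 sites, a TATA box and 4 GC boxes, and the EREG window a TATA box and a TEAD site. The TATA letters began at -28 in F3 and at -32 in EREG, counted from the annotated start. Windows were matched for 54 of the 75 genes, with 101 windows (1.87 per gene), against 12479 for expressed genes (1.47 per gene) and 35116 for all genes (1.29 per gene), so a match in any window of a gene had more chances among the 54. At least 1 E-box of the kind bound by MYC (CACGTG) was present for 16.7% of these 54 genes, against 13.2% of 8493 expressed genes and 8.77% of all 27305 genes with a window, and in 10.9% of their windows against 9.67% and 7.26%. A TATA box (TATAAA) was present for 18.5% of the 54 genes against 7.55% of expressed and 14% of all genes, and in 10.9% of their windows against 5.61% and 11.5%. An AP-1 site (TGANTCA) was present for 14.8% of the 54 genes against 6.53% of expressed and 9.37% of all genes, and in 9.90% of their windows against 4.91% and 7.71%. A GC box (GGGCGG) was present for 75.9% of the 54 genes against 80.1% of expressed and 48.3% of all genes. A TEAD site (GGAATG) was present for 18.5% of the 54 genes against 14.5% of expressed and 16.7% of all genes. The ETS core CCGGAAGT was present for 3.70% of the 54 genes against 11.5% of expressed and 4.95% of all genes. The cAMP response element TGACGTCA was present for 1.85% of the 54 genes against 4.13% of expressed and 2.25% of all genes. The TCF/LEF core (TTCAAAG) was present for 5.56% of the 54 genes against 3.60% of expressed and 5.47% of all genes. No motif overlaps another by its letters in these 3 windows, and the shares are descriptions over few genes.

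With HMBA the 75 genes together gave 308 CPM in shNELFE cells with EPZ-5676, 361 CPM in shNELFE cells, 314 CPM in shCTL cells with EPZ-5676 and 369 CPM in shCTL cells. Without HMBA the matching sums were 4564, 4558, 4268 and 4658 CPM. A gene kept a median of 8.34% of its level without HMBA, from 2.17% for ZBED2 to 12.5% for E2F8, which is 46.0-fold to 8.02-fold lower with a median of 12-fold. The median expressed gene kept 79.4% to 83.7% of its CPM in the 4 matched pairs of libraries, so part of each CPM difference is shared by most genes. On totals scaled by TMM, a method that sets the bulk of genes level, 53 of the 75 met the limit and no other gene did. All 75 were called lower with HMBA by edgeR's quasi-likelihood test, as were 35.7% of all genes tested, and nothing is read from that count. In bulk RNA, fewer transcripts per cell and fewer expressing cells cannot be told apart. The limit of 1/8 falls in a continuous range: TRIM16 and TRIM32 at 12.4% and E2F8 at 12.5% lay just inside, and NFIC and MLLT10 at 12.6% and ENSG00000266401 at 12.7% just outside. Counts with HMBA were low, since 32 of the 75 genes had under 100 counts summed over those 4 libraries, though none had under 10.

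**Figure D1:**
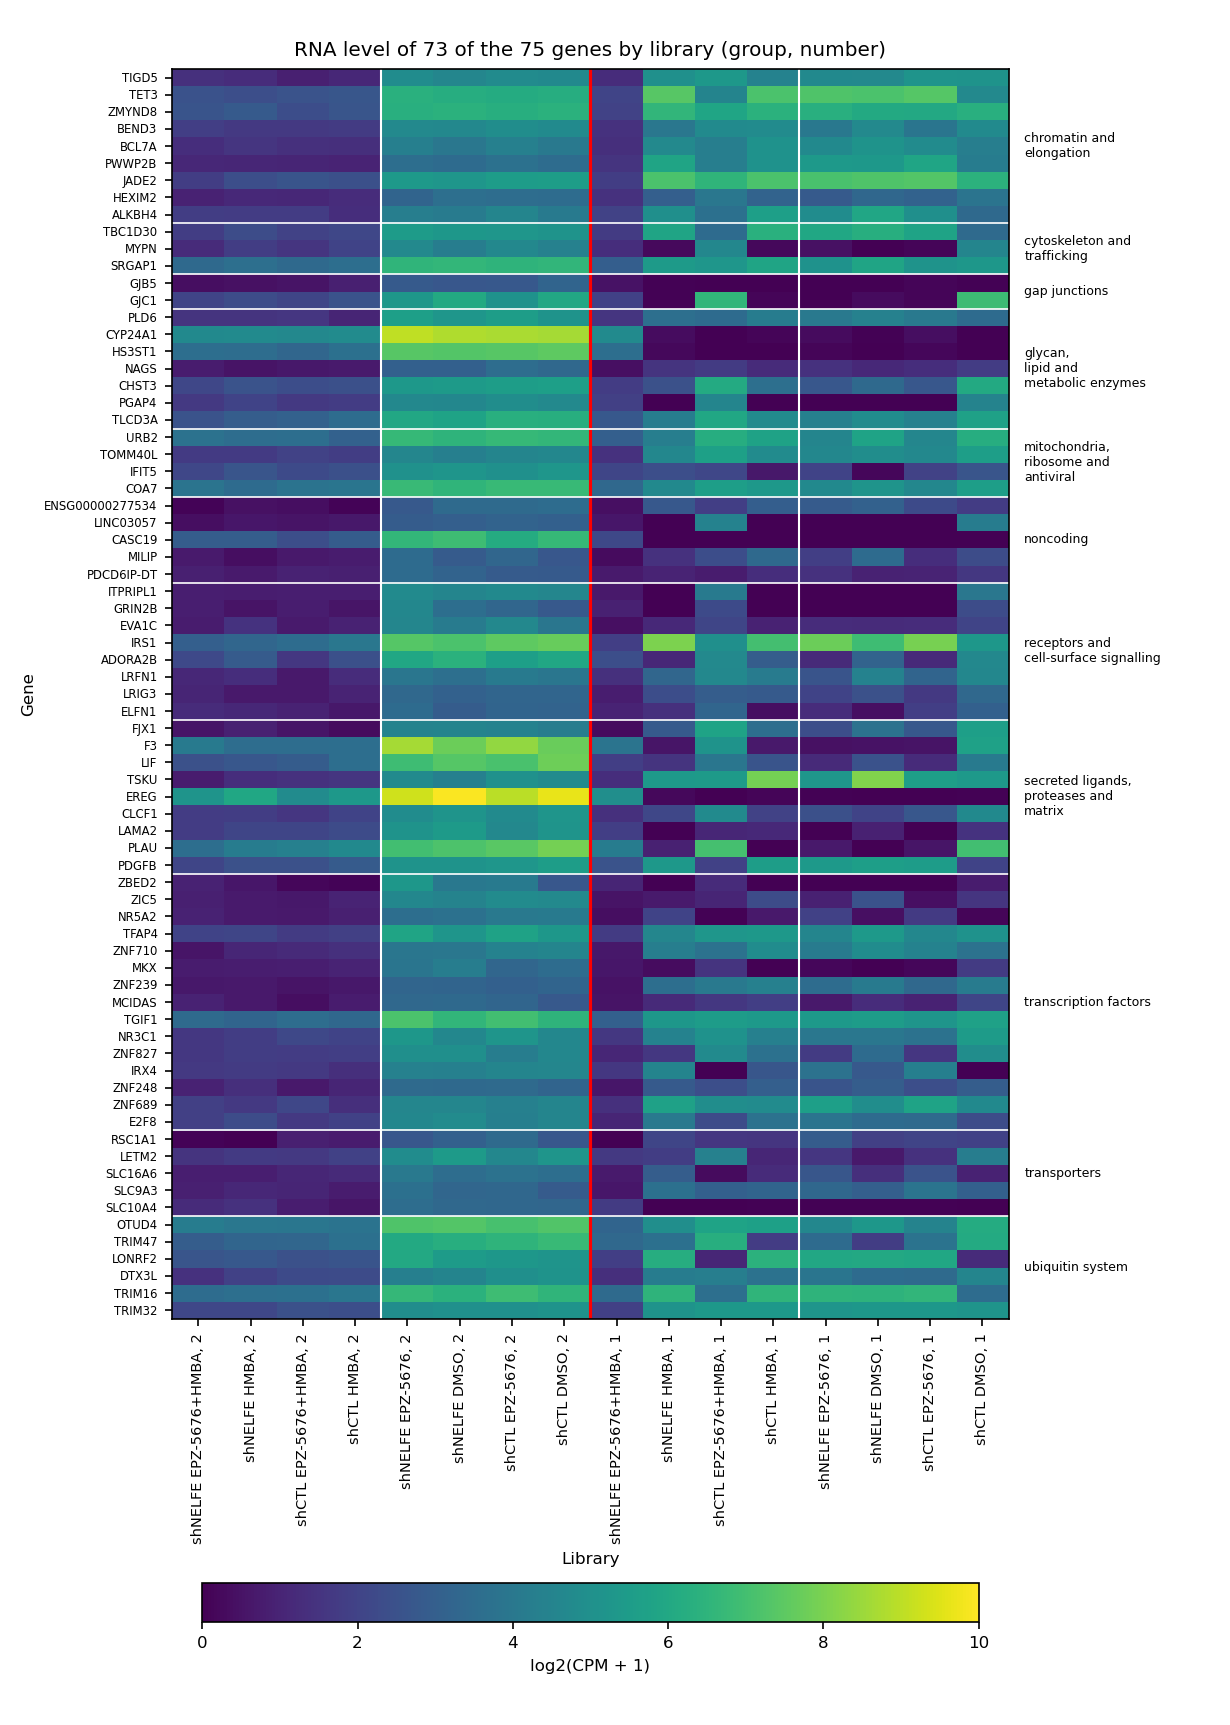
RNA level, as log2(CPM + 1), of 73 of the 75 genes (rows, grouped by function) in all 16 libraries (columns, with group and number). The 4 libraries numbered 2 with HMBA are dark beside the 4 without, as the genes were chosen by that difference. The libraries numbered 1 to the right of the red line show no such split by HMBA, and 1 of them (shNELFE with EPZ-5676 and HMBA) resembles the first 4 columns.

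The library numbered 1 that resembles those numbered 2 was not used by the rule. It was labelled shNELFE with EPZ-5676 and HMBA, and it gave a summed level of 264 CPM over the 75 genes. Set against the mean of the 4 libraries numbered 2 without HMBA, 70 of the 75 genes were at or under 1/8 in it (1.88% of 10452 expressed genes were), with a median of 5.96% and a range from 0 to 24.4%. The 5 exceptions, chosen here after their values were seen, were SLC10A4 (24.4%), PWWP2B (16.6%), HEXIM2 (16.3%), ALKBH4 (16%) and PDGFB (13%). It has no partner without HMBA that resembles it, so it is compared with libraries the rule used, and no test was possible. In the 8 libraries numbered 1, of which 7 do not follow their labels, 0 of 69 of the genes tested were called for HMBA by edgeR (0 of 16637 genes, background 0%), with 0 of the 69 and 3 of the 16637 at an unadjusted p under 0.05. Over all 16 libraries, the same 7 included, the count was 0 of 75 (0 of 15853 genes). At an unadjusted edgeR p under 0.05 were 40 of the 75 and 1641 of the 15853. The 16 include the 8 libraries that the rule used, so low p-values were built in and nothing is read from that count.

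Secreted ligands, proteases and matrix proteins made up 9 of the 75 genes and kept a median of 5.59% of their level (2.57% to 12.3%). Per kb of exon, EREG, F3 and PLAU were among the highest of all 75 without HMBA, at 128, 101 and 58.3 CPM per kb. EREG (ENSG00000124882, hg38 chromosome 4, 74365143 to 74388751) encodes epiregulin, a ligand of the EGF receptor family. With HMBA it had 35.3 CPM in shNELFE cells with EPZ-5676, 61.0 in shNELFE cells, 27.6 in shCTL cells with EPZ-5676 and 39.3 in shCTL cells. Without HMBA it had 626, 971, 497 and 822 CPM in the same order of cells. All 4 values with HMBA lay far below all 4 without, which the choice of genes by these same values makes likely. LIF (ENSG00000128342, chromosome 22, 30240447 to 30246851), a cytokine of the interleukin-6 family, had 4.61 to 11.2 CPM with HMBA and 119 to 223 CPM without, and kept 4.34%. CLCF1, another cytokine of that family, kept 7.94% and PDGFB, a chain of platelet-derived growth factor, kept 12.3%. F3 (ENSG00000117525, chromosome 1, 94529225 to 94541800), tissue factor, a membrane protein grouped here with the proteases of clotting, which starts the clotting cascade, had 10.9 to 16.2 CPM with HMBA and 209.8 to 405 CPM without. PLAU, the urokinase that turns plasminogen into plasmin, had 11.4 to 25.9 CPM with HMBA and 126 to 241 CPM without. FJX1 (ENSG00000179431, chromosome 11, 35618419 to 35620868), the human counterpart of the Drosophila gene four-jointed, had 0.214 to 0.879 CPM with HMBA and 17.7 to 21.6 CPM without. TSKU, a secreted leucine-rich repeat protein, kept 5.50%, and LAMA2, a laminin chain of basement membranes, kept 9.43%.

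Receptors and cell-surface signalling proteins were 9 genes with a median of 6.48% (3.16% to 12.1%). IRS1, the adaptor that couples insulin and IGF receptors to PI3 kinase, had 7.10 to 14.5 CPM with HMBA and 142 to 203 CPM without. ADORA2B, a Gs-coupled adenosine receptor, kept 6.48%. GRIN2B, a subunit of the NMDA glutamate receptor, had 0.440 to 0.781 CPM with HMBA and 5.98 to 24.0 CPM without, so its level without HMBA was spread widely. ITPRIPL1 had 0.733 to 0.795 CPM with HMBA and 22.7 to 26.4 CPM without, and EVA1C had 0.673 to 1.76 CPM with HMBA and 14.2 to 24.1 CPM without. The leucine-rich repeat proteins LRIG3, LRFN1 and ELFN1 kept 9.55%, 8.26% and 12.1%. GJB5 and GJC1, which encode gap junction proteins, kept 7.57% and 7.65%.

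Transcription factors were the largest group, 15 genes with a median of 7.53% (2.17% to 12.5%). ZBED2 (ENSG00000177494, chromosome 3, 111592900 to 111595443), a zinc finger repressor, had 0.0715 to 0.923 CPM with HMBA and 5.55 to 37.8 CPM without. ZIC5, of the ZIC family of developmental zinc finger proteins, had 0.550 to 1.00 CPM with HMBA and 21.3 to 27.3 CPM without. TGIF1, a homeobox corepressor of TGF-beta signalling, had 8.43 to 11.1 CPM with HMBA and 89.5 to 141 CPM without. Nuclear receptors were present with NR5A2 (5.51%) and NR3C1 (9.14%), the glucocorticoid receptor. TFAP4, an E-box factor and known target of MYC, kept 6.17%, the homeobox genes MKX and IRX4 kept 6.34% and 9.70%, MCIDAS, which drives multiciliated cell fate, kept 7.53%, and E2F8, an atypical repressor of the E2F family, kept 12.5%. A further 5 carried ZNF names (ZNF710, ZNF239, ZNF827, ZNF248 and ZNF689), at 6.31% to 11.1%, so ZNF symbols were 6.67% of the 75 genes against 2.68% of expressed genes.

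Chromatin and elongation genes were 9 with a median of 9.60% (4.81% to 11.8%). They included TET3, which oxidises methylated cytosine (6.44%), ZMYND8, a reader of acetylated histones (6.48%), and BCL7A, a SWI/SNF subunit (9.60%). Also among them were BEND3 (8.89%), JADE2, a subunit of histone acetyltransferase complexes (9.65%), and TIGD5, derived from a transposase (4.81%). EEF1D on the opposite strand shares up to 261 bases of exon with TIGD5, at a mean of 357 CPM with HMBA and 313 CPM without. HEXIM2, the paralogue of HEXIM1 and like it an inhibitor of P-TEFb, had 0.923 to 1.43 CPM with HMBA and 8.35 to 11.5 CPM without. HEXIM1 itself was higher with HMBA in all 4 pairs, as given above. A transcript on the opposite strand shares 1026 bases of exon with HEXIM2, so its counts are uncertain.

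The other groups held enzymes, the ubiquitin system and organelle genes. Among 7 glycan, lipid and metabolic enzymes (median 6.68%), CYP24A1, which breaks down active vitamin D, had 24.5 to 27.3 CPM with HMBA and 402 to 527 CPM without. HS3ST1, a heparan sulfate sulfotransferase, had 8.99 to 11.8 CPM with HMBA and 159.7 to 185 CPM without, and PLD6, a mitochondrial enzyme of the phospholipase D family, had 1.07 to 2.02 CPM with HMBA and 34.1 to 49.0 CPM without. CHST3, a chondroitin sulfotransferase, kept 9.51%, NAGS, which makes the activator of the urea cycle, kept 6.68%, PGAP4, which modifies GPI anchors, kept 9.57%, and TLCD3A kept 11.0%. Of 6 ubiquitin system genes (median 11.4%), 3 were TRIM ligases (TRIM47, TRIM16 and TRIM32), DTX3L is the ligase partner of PARP9, OTUD4 is a deubiquitinase with 13 to 17.2 CPM with HMBA and 135 to 158 CPM without, and LONRF2 carries a RING domain. TRIM16 has a near-identical copy, TRIM16L, so its counts depend on how shared reads were counted. Transporters and related genes were 5, with SLC16A6 (7.89%), SLC9A3, a sodium-proton exchanger of the gut brush border (10.5%, with 1456 bases of exon shared with PP7080 on the same strand), SLC10A4 (11.1%), the mitochondrial protein LETM2 (7.0%) and RSC1A1 (5.71%), whose only exon lies wholly inside an exon of DDI2 on the same strand over 1854 bases, so its counts are uncertain. The mitochondrial, ribosomal and antiviral genes COA7, URB2, TOMM40L and IFIT5 kept 10.8% to 12.3%. The cytoskeletal and trafficking genes TBC1D30, MYPN and SRGAP1 kept 8.34% to 11.2%. The noncoding genes were CASC19, LINC03057, MILIP, PDCD6IP-DT and ENSG00000277534, at 2.24% to 10.7%. CASC19 had 4.28 to 6.81 CPM with HMBA and 70.9 to 119 CPM without, and lies 507893 bases from MYC, one of the genes dropped by name, on chromosome 8.

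**Figure D2:**
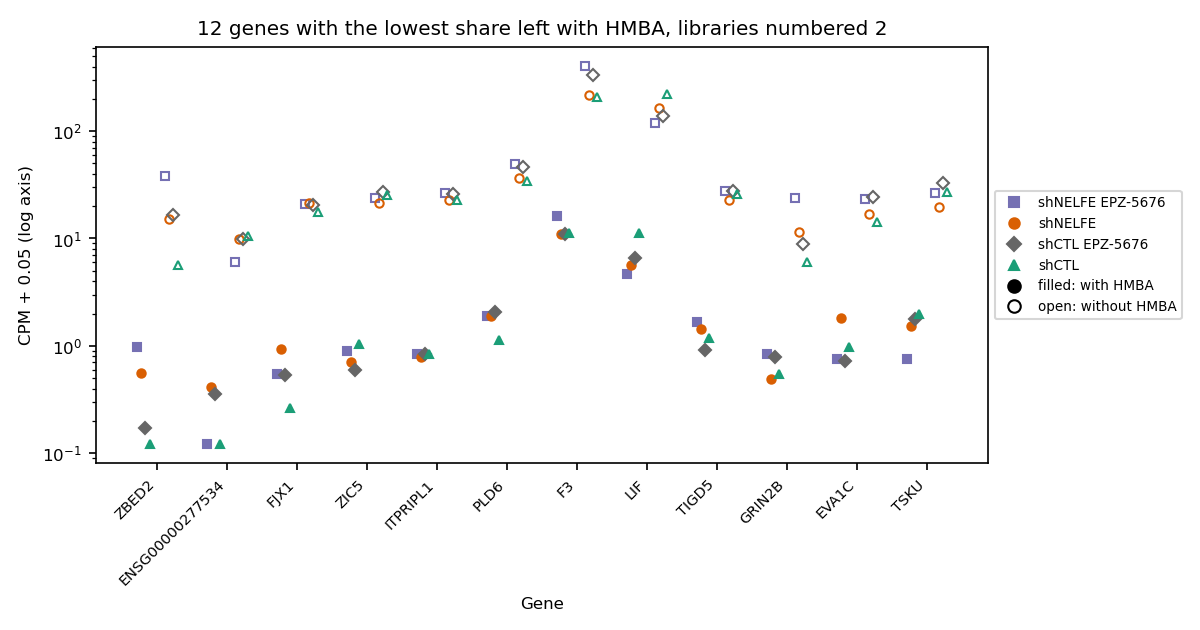
RNA level (CPM plus 0.05, log axis) of the 12 genes with the lowest share left with HMBA, in the 8 libraries numbered 2, with colour and shape for shRNA and EPZ-5676. Filled points (with HMBA) lie below all open points (without) for each of the 12 genes, which their choice by these same values makes likely. ZBED2 and GRIN2B spread more among their open points than the others.

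Gene structure, position and promoter composition were not used by the rule. Of the 70 protein-coding genes, 14 (20.0%) had all of their coding sequence in 1 exon, against 4.11% of 10177 expressed protein-coding genes; they included ELFN1, FJX1, GJB5, GJC1, HS3ST1, IRS1, PGAP4, RSC1A1, TIGD5, TRIM32, TSKU, ZBED2 and ZNF239. The median number of coding exons was 5 against 9, and the median gene span 22161 against 33637 bases. The share with the destabilising letters ATTTA in the 3′ UTR was 64.3% against 67.3%, with 1.99 against 2.26 matches per kb. Chromosome 17 held 11 of the 75 genes (14.7% against 6.32% of expressed genes) and chromosome 10 held 8 (10.7% against 3.90%). On chromosome 17, TRIM16 and ADORA2B lie 260606 bases apart and GJC1 and HEXIM2 329884 bases apart. GC content of the promoter windows was 65.7% at the median against 65.3% for expressed genes. These are counts over genes with no test.

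**Figure D3:**
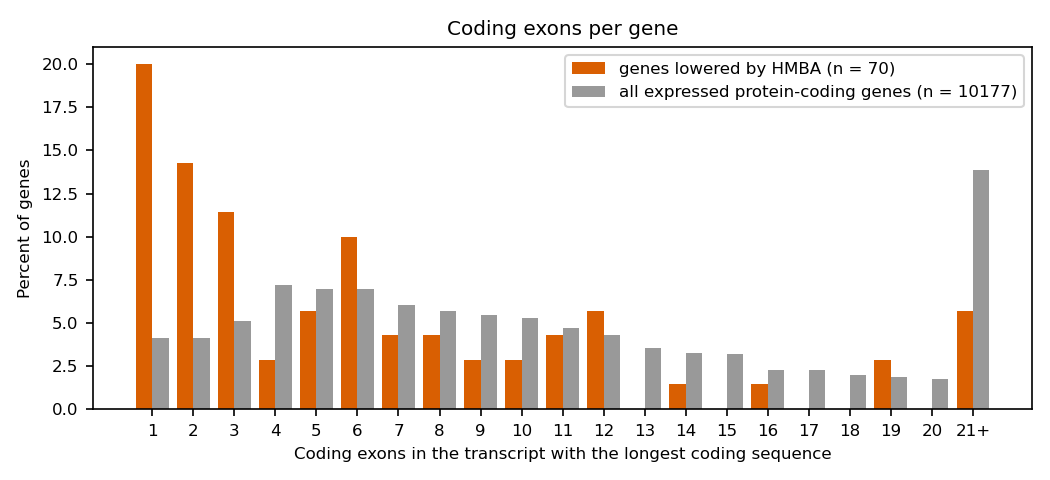
Share of protein-coding genes (percent, bars) by number of coding exons in the transcript with the longest coding sequence, for the 70 genes that HMBA lowered (left bar of each pair) and all 10177 expressed genes. The bar at 1 exon is 20.0% against 4.11%.

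The shRNA comparison asks whether these genes differ in level between shNELFE and shCTL cells, in a fit with EPZ-5676 and HMBA as further terms. With 1 shRNA label per arm, lower NELFE and other effects of the shRNA cannot be told apart. Among the 75 genes, ZBED2, EREG, PLAU, LIF, DTX3L and TRIM47 were the steadiest when 1 library was left out. ZBED2 and EREG rose in shNELFE cells (2.59-fold and 1.32-fold), and the others fell (0.626-fold for DTX3L to 0.741-fold for TRIM47). edgeR called each of these genes with any 1 of the 8 libraries left out. In all, 16 of the 75 were called at an adjusted p under 0.05, with 7 higher and 9 lower, where 13.1% of the 14808 genes tested were called (5.62% higher, 7.48% lower; 15.7% among expressed genes). The median log2 fold change was 0.013 over the 75 genes and 0.0057 over all. Without the shNELFE DMSO library 10 were called, and without the shCTL EPZ-5676 library 8. Calls over all genes fell too, to 1431 of 14730 and 1634 of 14723 in that order, from 1940 of 14808. With so little RNA left with HMBA, the fit rests mainly on the 4 libraries without it.

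ZBED2 with HMBA had 0.923 and 0.513 CPM in shNELFE cells with and without EPZ-5676, against 0.122 and 0.0715 CPM in shCTL cells with and without EPZ-5676, the last 2 under the level of 3 counts. Without HMBA it had 37.8 and 15.0 CPM in shNELFE cells, against 16.5 and 5.55 CPM in shCTL cells. It rose by a log2 fold change of 1.37 ± 0.17 (SE; edgeR adjusted p = 0.000202), higher in shNELFE cells in 4 of 4 matched pairs. EREG was likewise higher in 4 of 4 pairs, with a log2 fold change of 0.40 ± 0.07 (edgeR adjusted p = 0.00336). Its levels given above show the knockdown difference both with and without HMBA.

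PLAU with HMBA had 11.4 and 17.4 CPM in shNELFE cells with and without EPZ-5676, against 19.5 and 25.9 CPM in shCTL cells. Without HMBA it had 126 and 149 CPM in shNELFE cells, against 173 and 241 CPM in shCTL cells. It fell by 0.60 on the log2 scale (SE 0.07, edgeR adjusted p = 0.000218), lower in 4 of 4 pairs. An antisense neighbour, C10orf55, overlaps its exons at 0.241 CPM with HMBA and 1.26 CPM without. DTX3L had 1.70, 2.78, 19.1 and 21.8 CPM in shNELFE cells (EPZ-5676 with HMBA, HMBA, EPZ-5676, DMSO), against 3.73, 3.86, 30.4 and 34.0 CPM in shCTL cells. It fell by 0.67 (SE 0.11, edgeR adjusted p = 0.00178), with the 2 shRNA groups apart in every treatment. PARP9 on the opposite strand shares up to 139 bases of exon with DTX3L, at a mean of 7.62 CPM with HMBA and 20.9 CPM without. TRIM47 had 6.74, 8.65, 66.1 and 75.4 CPM in shNELFE cells in the same order, against 8.74, 11.9, 88.9 and 106 CPM in shCTL cells, and fell by 0.43 (SE 0.08, edgeR adjusted p = 0.00262). LIF had 4.61, 5.64, 119 and 164 CPM in shNELFE cells, against 6.54, 11.2, 139.6 and 223 CPM in shCTL cells, and fell by 0.44 (SE 0.09, edgeR adjusted p = 0.00632).

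Calls for the other 10 genes were each lost in 2 to 6 of the 8 fits with 1 library left out. Those fits had 3 residual degrees of freedom, against 4 with all 8 libraries. They called 1023 to 2002 genes over all, against 1940. Whether a lost call reflects the library left out or the smaller fit was not tested. GRIN2B had 0.781, 0.440, 24.0 and 11.4 CPM in shNELFE cells, against 0.734, 0.500, 8.79 and 5.98 CPM in shCTL cells, so the groups were apart without HMBA and mixed with it. Its log2 fold change was 1.05 ± 0.19 (edgeR adjusted p = 0.00358, higher in 3 of 4 pairs), and the call was lost without the shNELFE EPZ-5676 library (adjusted p = 0.106) or the shCTL EPZ-5676 library (0.0651). ZNF710 had 0.497, 1.10, 14.1 and 14.5 CPM in shNELFE cells, against 1.28, 1.64, 20.7 and 22.4 CPM in shCTL cells. It fell by 0.63 (SE 0.14, edgeR adjusted p = 0.0105). The call was lost without the shNELFE DMSO library (adjusted p = 0.0711) or the shCTL EPZ-5676 library (0.0524). ZNF710-AS1 on the opposite strand shares up to 762 bases of exon with ZNF710, at a mean of 1.89 CPM with HMBA and 0.630 CPM without. The other calls included lower levels of IRS1, TLCD3A and PDGFB and higher levels of CASC19, ADORA2B and LONRF2, each in 4 of 4 pairs, and MKX, with log2 fold changes from -0.45 to 0.54. MKX was higher in only 2 of 4 pairs: with HMBA it had 0.710 and 0.733 CPM in shNELFE cells with and without EPZ-5676, against 0.795 and 1.00 CPM in shCTL cells, and without HMBA 13.9 and 17.7 CPM against 8.79 and 10.7 CPM. Each of the 7 lost its call in 2 to 6 of the 8 fits with 1 library left out. ADORA2B (log2 fold change 0.42, edgeR adjusted p = 0.0255) lost it without the shCTL DMSO library (adjusted p = 0.156) or the shNELFE EPZ-5676 library (0.095). PDGFB (log2 fold change -0.33, edgeR adjusted p = 0.0472) kept it only without the shNELFE EPZ-5676 or the shNELFE HMBA library, and its highest adjusted p was 0.220, without the shNELFE DMSO library. IRS1 lost it without the shNELFE DMSO or the shCTL DMSO library, with adjusted p up to 0.0878. The highest adjusted p was 0.0931 for TLCD3A (without the shNELFE DMSO library), 0.112 for CASC19 (without the shCTL EPZ-5676 library), 0.215 for LONRF2 (without the shNELFE EPZ-5676 library) and 0.321 for MKX (without the shCTL DMSO library).

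**Figure D4:**
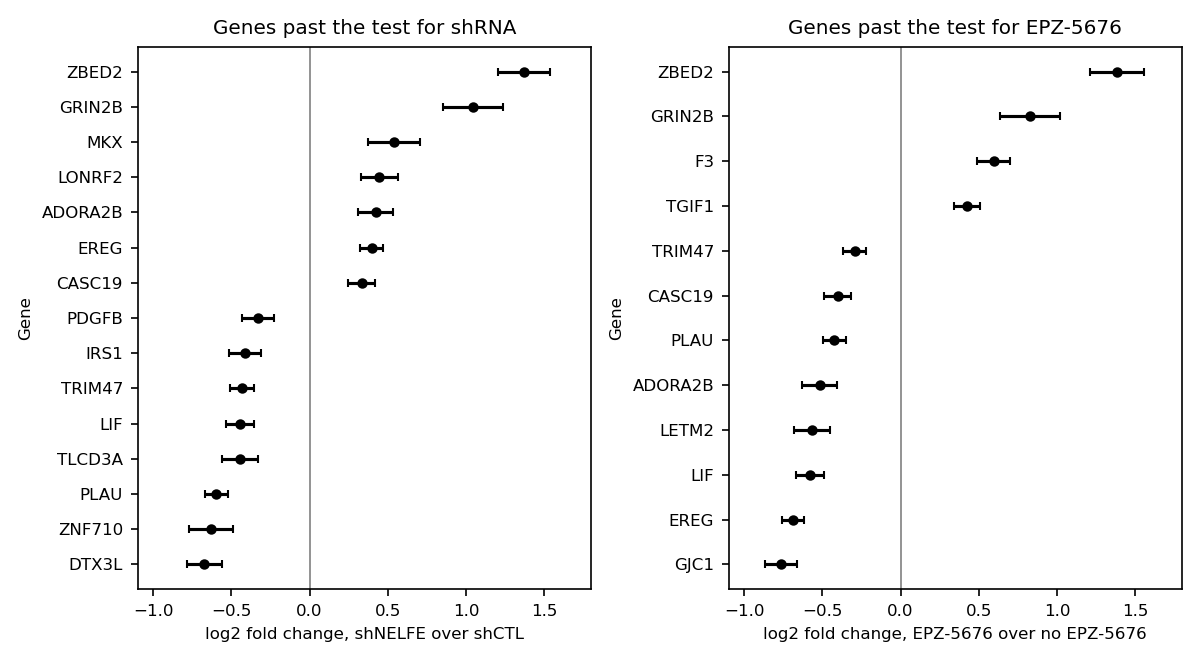
log2 fold changes (points) with SE (bars) of the genes past an edgeR adjusted p of 0.05 among the 75, for shNELFE over shCTL (left, 15 of 16 genes) and for EPZ-5676 over no EPZ-5676 (right, 12 genes), in the 8 libraries numbered 2. ZBED2 is the highest in both panels, DTX3L the lowest on the left and GJC1 the lowest on the right.

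The EPZ-5676 comparison asks the same of DOT1L inhibition, in the same fit and the same 8 libraries as the shRNA comparison, so the values of both stand side by side here and their likeness is not counted. EREG, LIF, PLAU and GJC1 fell with EPZ-5676 and ZBED2 rose, with any 1 library left out. In all, 12 of the 75 genes were called by edgeR, with 4 higher and 8 lower, where 3.80% of the genes tested were called (1.36% higher, 2.44% lower; 4.54% among expressed genes). The median log2 fold change was 0.0087 over the 75 genes and 0.0042 over all. Without the shCTL DMSO library 5 were called, without the shNELFE DMSO library 7 and without the shNELFE EPZ-5676 library 5. Calls over all genes fell too, to 220 of 14731, 261 of 14730 and 210 of 14688 in that order, from 563 of 14808.

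EREG had 35.3 and 27.6 CPM with EPZ-5676 and HMBA in shNELFE and shCTL cells, against 61.0 and 39.3 CPM with HMBA alone, and 626 and 497 CPM with EPZ-5676, against 971 and 822 CPM with DMSO. It fell by 0.69 (SE 0.07, edgeR adjusted p = 0.000217), lower in 4 of 4 pairs, whereas its shRNA difference was 0.40. ZBED2 rose by a log2 fold change of 1.38 ± 0.17 (edgeR adjusted p = 0.000757), beside 1.37 for shNELFE, with the highest level in cells that had both. GJC1 had 3.19 and 3.30 CPM with EPZ-5676 and HMBA in shNELFE and shCTL cells, against 3.96 and 4.93 CPM with HMBA, and 38.3 and 33.4 CPM with EPZ-5676, against 66.9 and 62.4 CPM with DMSO. It fell by 0.76 (SE 0.10, edgeR adjusted p = 0.00149). LIF fell by 0.58 (SE 0.09, edgeR adjusted p = 0.00344) and PLAU by 0.42 (SE 0.07, edgeR adjusted p = 0.00756), both lower in 4 of 4 pairs and both also lower with shNELFE.

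F3 and TGIF1 were higher with EPZ-5676. F3 had 16.2 and 10.9 CPM with EPZ-5676 and HMBA in shNELFE and shCTL cells, against 11.0 and 11.3 CPM with HMBA, but 405 and 333 CPM with EPZ-5676, against 216 and 209.8 CPM with DMSO. The groups were apart without HMBA and overlapped with it. Its log2 fold change was 0.60 ± 0.11 (edgeR adjusted p = 0.00911, higher in 3 of 4 pairs), and the call was lost without the shNELFE EPZ-5676 library (adjusted p = 0.0666), the shCTL DMSO library (0.0533) or the shNELFE DMSO library (0.0504). TGIF1 had 141 and 124 CPM with EPZ-5676, against 95.8 and 89.5 CPM with DMSO (log2 fold change 0.42 ± 0.08, edgeR adjusted p = 0.0136), and lost its call without the shCTL DMSO library (adjusted p = 0.114), the shNELFE EPZ-5676 library (0.113) or the shNELFE DMSO library (0.0615). LETM2 had 27.9 and 23.7 CPM with EPZ-5676, against 42.8 and 35.8 CPM with DMSO (log2 fold change -0.57 ± 0.11, edgeR adjusted p = 0.0147). It lost its call when any of the 4 libraries without HMBA was left out (adjusted p = 0.0682 to 0.123). FGFR1 on the opposite strand shares up to 138 bases of exon with LETM2, at a mean of 116 CPM with HMBA and 56.7 CPM without. The other calls, CASC19, ADORA2B and TRIM47 (lower) and GRIN2B (higher), were lost in 3 to 8 of the 8 fits with 1 library left out, TRIM47 in all 8. Their highest adjusted p was 0.398 for GRIN2B and 0.111 for ADORA2B (both without the shNELFE EPZ-5676 library), and 0.172 for CASC19 and 0.167 for TRIM47 (both without the shCTL DMSO library).

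**Figure D5:**
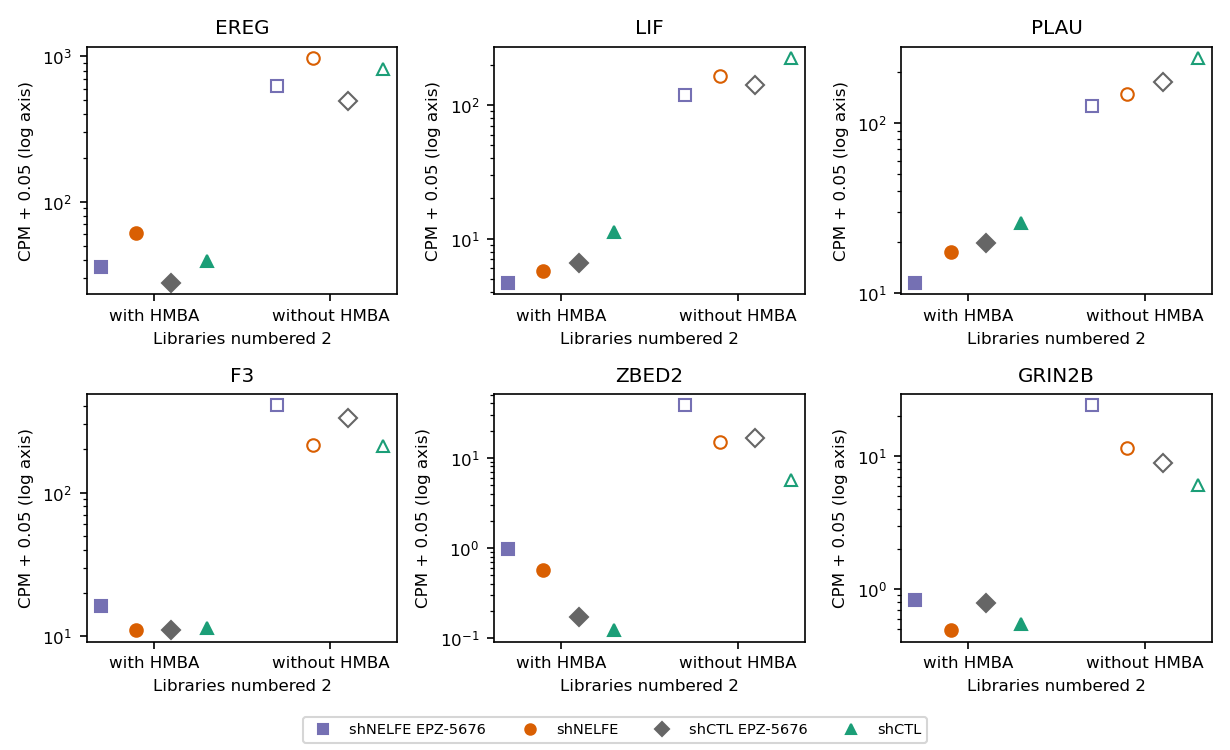
RNA level (CPM plus 0.05, log axis) of 6 genes in each of the 8 libraries numbered 2, with HMBA (filled) left of without HMBA (open). EREG is lower with EPZ-5676 and higher with shNELFE at both HMBA states, PLAU and LIF are lowest in shNELFE cells with EPZ-5676, and F3, ZBED2 and GRIN2B are highest there without HMBA.

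Adding the library numbered 1 that resembles the others, for 9 in all, reduced the calls. For shRNA 4 of the 75 genes were called (ZBED2, DTX3L, EREG and GRIN2B) and for EPZ-5676 3 (EREG, ZBED2 and GJC1), where 2.37% and 0.201% of 14912 genes were called. The log2 fold changes of these genes were close to those above. They were 1.47, -0.71, 0.40 and 0.97 for shRNA and -0.69, 1.40 and -0.71 for EPZ-5676. PLAU, LIF and TRIM47, called for shRNA with any 1 of the 8 libraries left out, were not called with 9. Nor were LIF and PLAU called for EPZ-5676 with 9. In all 16 libraries 0 of the 75 genes and 0 of 15853 (0%) were called for either factor, with or without the replicate number as a block. At an unadjusted edgeR p under 0.05 for shRNA and EPZ-5676 were 1 and 0 of the 75 without the block, and 0 and 0 with it. Of the 15853 genes, 400 and 90 were without the block, and 443 and 158 with it.

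The factors were also fitted separately within the HMBA states, with 1 residual degree of freedom each. In the 4 libraries without HMBA, 31 of the 75 genes were called for shRNA, where 20.1% of all genes tested were (23.6% among expressed genes) and 27 for EPZ-5676, where 15.3% were (18.0% among expressed genes). For shRNA 14 were higher and 17 lower (8.59% and 11.5% of all genes), and for EPZ-5676 15 were higher and 12 lower (7.06% and 8.23%). In the 4 libraries with HMBA, 67 of the 75 passed the filter on low counts, and the 8 that did not had too few counts for a test. Of the 67, edgeR called 6 for shRNA (13.6% of all genes, with 5.94% higher and 7.66% lower; 16.6% among expressed genes), with EREG higher (0.54 on the log2 scale) and RSC1A1, LIF, PLAU, IRS1 and TLCD3A lower (-4.14, -0.73, -0.64, -0.62 and -0.60). It called 3 for EPZ-5676 (3.28% of all genes, with 1.54% higher and 1.74% lower; 4.05% among expressed genes), which included lower levels of EREG and PLAU (-0.67 and -0.51).

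Whether the loss with HMBA itself depends on shRNA or EPZ-5676 is what the product terms test. The share of the level left with HMBA had a median over the 75 genes of 7.08% in shNELFE cells with EPZ-5676, 8.39% in shNELFE cells, 7.95% in shCTL cells with EPZ-5676 and 9.09% in shCTL cells. At or under 1/8 in a single pair of libraries were 73, 59, 69 and 62 of the 75, against 1.09%, 0.839%, 0.982% and 0.782% of expressed genes. The rule used these same pairs, so high counts were built in and nothing is read from them. With the product of HMBA and shRNA added to the fit, edgeR called 0 of the 75 (0 by DESeq2), where 0.243% of all genes were called. At an unadjusted edgeR p under 0.05 were 11 of the 75 and 1121 of all 14808 genes. With the product of HMBA and EPZ-5676 it called 0 of the 75 (0 by DESeq2), where 0.0338% of all genes were called. Here 16 of the 75 and 1654 of the 14808 were at an unadjusted edgeR p under 0.05. DESeq2 gave no adjusted p for 11 and 41 of the 75. The product term of HMBA and EPZ-5676 had a median of -0.20 on the log2 scale over the 75 genes. Over expressed genes the median was -0.021, and over all genes tested -0.014. A negative term means a smaller share left with HMBA where EPZ-5676 was present. Genes are not replicates of a condition, and no dependence of the set on EPZ-5676 is read from these medians.

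The smallest p-values for HMBA with EPZ-5676 belonged to MYPN, TRIM16 and EVA1C. MYPN, a protein of the muscle sarcomere, had 1.35 and 1.90 CPM with EPZ-5676 and HMBA in shNELFE and shCTL cells, against 2.56 and 3.0 CPM with HMBA, but 24.8 and 24.6 CPM with EPZ-5676, against 18.0 and 19.9 CPM with DMSO. Its product term was -1.17 ± 0.27 (edgeR adjusted p = 0.152). TRIM16 had -0.54 ± 0.14 (edgeR adjusted p = 0.189) and EVA1C -1.58 ± 0.41 (edgeR adjusted p = 0.196). For HMBA with shRNA the smallest p was that of RSC1A1, at 0.0710 and 0 CPM with HMBA in shNELFE cells with and without EPZ-5676, against 0.856 and 0.715 CPM in shCTL cells (product term -3.92 ± 1.08, edgeR adjusted p = 0.291). The shNELFE values there lie under the level of 3 counts, and the exon shared with DDI2 applies. These calls depended on the fit: with no filter on low counts RSC1A1 was called for shRNA and MYPN and EVA1C for EPZ-5676, and with all 3 pairwise products fitted together RSC1A1 for shRNA and F3, MYPN, EVA1C, TLCD3A and TRIM16, among others, for EPZ-5676. The share of all genes called was then 0.599% and 0.693% with no filter and 2.98% and 4.61% with all 3 products, for shRNA and EPZ-5676 in that order.

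The pathways these genes belong to were described from lists of which the 75 hold only a few members, and each count is read beside the share of all genes tested, which was 5.62% higher and 7.48% lower with shNELFE and 1.36% higher and 2.44% lower with EPZ-5676. Of 32 RAS-ERK response genes tested, which include LIF and EREG, 7 were higher and 4 lower with shNELFE (median log2 fold change 0.05) and 1 higher and 6 lower with EPZ-5676 (median -0.18). Of 30 growth factors, cytokines and chemokines tested, which include LIF and PDGFB, 4 were higher and 7 lower with shNELFE (median -0.08) and 2 higher and 3 lower with EPZ-5676 (median 0.17). Of 34 ribosome biogenesis genes linked to MYC, which include URB2, 4 were higher and 0 lower with shNELFE and 2 higher and 0 lower with EPZ-5676. Of 23 TGF-beta response genes, which include TGIF1, 2 were higher and 2 lower with shNELFE and 3 higher and 0 lower with EPZ-5676. Of 25 Notch pathway genes, which include FJX1, 2 were higher and 3 lower with shNELFE and 1 higher and 1 lower with EPZ-5676. Of 44 G protein-coupled receptors and RGS proteins, which include ADORA2B, 2 were higher and 4 lower with shNELFE and 1 higher and 2 lower with EPZ-5676. The medians over all genes, given above, were near 0.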

How the data were processed

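The deposited table holds the authors' raw counts of reads per gene for 16 poly(A) RNA libraries, made with a stranded TruSeq kit per the labels' protocols. The tools listed are edgeR, HTSeq 0.6.1p1, Cufflinks 2.1.1 and STAR 2.4.0b with the build hg38, per the submitters' processing notes, which give no roles. Which annotation release and which strand setting were used is not given in the sources used here, so counts of genes that overlap (15 of the 75 genes with an expressed partner on the opposite strand, 4 on the same strand) are uncertain. Gene coordinates are from GENCODE on hg38, and promoter windows from RefSeq.

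The genes and gene lists were chosen with earlier results of these data known. edgeR 4.0.16 in R 4.3.3 (limma 3.58.1) fitted an additive model of HMBA, EPZ-5676 and shRNA to the 8 libraries numbered 2, with TMM scaling, filterByExpr and the quasi-likelihood test. It tested 14808 genes with 4 residual degrees of freedom, and p-values were adjusted by Benjamini-Hochberg over all of them, with a threshold of 0.05. Each product term was added alone, leaving 3. A pair is made of libraries alike in all but the factor under test. Alternatives were RLE scaling, unscaled totals, no filter, DESeq2 1.42.0, limma-voom, other libraries and each library left out. The code was tested on simulated data.

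Same-numbered libraries deviated together from their group means (correlations of 0.140 to 0.976 over 28 pairs). Most libraries numbered 1 stood apart from those numbered 2, which alone gives such correlations. Whether the numbers pair the libraries therefore cannot be told, and the replicate block was fitted only as an alternative. Levels of single libraries are CPM on unscaled totals. Pearson's r used the log2 of CPM plus 2. Floors cover counting error only. Genes named with values are the 12 with the lowest share left, the 12 with the highest mean CPM without HMBA, up to 8 called genes per effect with the smallest p, the 3 on each side of the limit and those in a gene list. Others are named under their function. Values of 2 of the 75 genes are not reported here by name, and the counts include them.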

Additional observations from a re-analysis of the deposited data

How the results depend on the processing

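The number of genes that met the rule was 409 with a limit of 1/4, 19 with a limit of 1/16, 100 with a floor of 2 CPM, 56 with a floor of 10 CPM, 53 on TMM-scaled totals, and 71 to 84 with 1 library left out. Calls for shRNA among the 75 were 4 with 9 libraries, and 0 in all 16 without and 0 with the replicate block. They were 31 in the 4 libraries without HMBA, 6 in the 4 with HMBA, and 8 to 18 with 1 library left out. Leaving out the shNELFE DMSO library gave 10, and the shCTL EPZ-5676 library 8. Over all genes, shRNA calls were 353 of 14912 with 9 libraries, 2817 of 13999 without HMBA and 1910 of 14049 with HMBA. They were 0 of 15853 in all 16 libraries, and 1023 to 2002 with 1 library left out. Calls for EPZ-5676 were 19 with no filter, 3 with 9 libraries, and 0 in all 16 without and 0 with the replicate block. They were 27 without HMBA, 3 with HMBA, and 5 to 15 with 1 library left out. Leaving out the shCTL DMSO, shNELFE DMSO or shNELFE EPZ-5676 library gave 5, 7 and 5. Over all genes, EPZ-5676 calls were 1077 of 26559 with no filter, 30 of 14912 with 9 libraries and 0 of 15853 in all 16. They were 2141 of 13999 without HMBA, 461 of 14049 with HMBA, and 210 to 604 with 1 library left out. For the product of HMBA with shRNA 1 gene was called with no filter (0.599% of all genes) and 1 with all 3 products together (2.98%). For HMBA with EPZ-5676 the counts were 2 (0.693% of all genes) and 6 (4.61%). The cause was not tested, except that the subsets have fewer samples. Of 19 named log2 fold changes that were called, 18 stayed on their side of the threshold with RLE scaling and 18 with DESeq2 (PDGFB did not), and 19 with limma-voom, no filter and unscaled totals. In all 16 libraries, 7 of which do not follow their labels, none of the 19 was called. Signs there were opposite for shRNA for GRIN2B (-0.19 without and -0.81 with the replicate block), ADORA2B (-0.57 and -0.89) and PDGFB (0.012 without). For EPZ-5676 they were opposite for EREG (1.66 with the block), LIF (0.020 with the block), GJC1 (0.57 without and 0.69 with), PLAU (0.51 and 0.89), TGIF1 (-0.035 and -0.0060), LETM2 (0.26 and 0.33) and ADORA2B (0.11 and 0.21). In the 4 libraries numbered 2 with HMBA, 3 counts are 0.183 to 0.220 CPM.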
